A study of Mus musculus with 16 samples.

Results

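Olfr763 to Olfr829 are consecutively numbered odorant receptor genes, most of which form a single cluster on mouse chromosome 10. Members were all genes on the array whose symbol is Olfr followed by a number in that range with no pseudogene suffix, and each was measured by 1 probe set. They numbered 56 of the 1080 Olfr genes on the array, leaving 1024 other Olfr genes for comparison. Of the 67 numbers in the range, 11 had no member. RefSeq (GRCm38.p6) placed 54 members within 1200 kb of chromosome 10 and the last pair by number, Olfr828 and Olfr829, on chromosome 9, so the name of the cluster holds for 54 of them. Olfr9 and Olfr247 lie in or close beside the same stretch of chromosome 10 but carry numbers outside the range.

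Odorant receptors are G protein-coupled receptors on the cilia of olfactory sensory neurons. Each mature neuron transcribes a single receptor allele, so the mRNA of a receptor in a pool of neurons follows how many neurons chose it and how much each makes. S100a5, a small calcium-binding protein, is made in mature olfactory neurons in step with their activity, and a GFP reporter of it therefore marks neurons that fired in the preceding hours.

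All mice carried the S100a5-tauGFP reporter. The labels give 24 animals of both sexes, aged 7 to 12 weeks, each kept alone in a chamber under clean air at 3.1 L per min for 40 h. From 26 h on, 10 s pulses every 20 min brought either filtered air, the vehicle, or cigarette smoke, the odour. Olfactory mucosa was then dissociated and sorted into GFP+ and GFP- cells, 3 mice to a pool, which gave 4 groups of 4 arrays: vehicle GFP+, smoke GFP+, vehicle GFP- and smoke GFP-. Neither the strain nor the making of the reporter allele is given in the sources used here. The design text names bourgeonal where the title and all sample labels name cigarette smoke; the sample labels were followed. A pool of 3 mice is 1 replicate, and the GFP- fraction is defined by lack of signal and can hold many cell types.

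S100a5 itself had log2 values of 16.39 to 16.51 in vehicle GFP+ cells and 14.91 to 15.47 in vehicle GFP- cells, against 16.80 to 17.14 and 15.51 to 16.08 after smoke. It therefore separated the sorted fractions in both exposures, by 1.21 (SE 0.14) and 1.15 (SE 0.14). Omp, a marker of mature olfactory neurons, lay between 18.06 and 18.29 on all 16 arrays. The mean of 5 measured immune cell genes was 8.16 to 9.16 on the GFP+ arrays and 14.03 to 15.57 on the GFP- arrays, that of 5 immature neuron genes 11.02 to 11.42 and 12.73 to 13.23, and that of 8 mature neuron genes 17.40 to 17.48 and 17.12 to 17.30. For 2 measured globose basal cell genes the mean was 6.02 to 6.84 on the GFP+ and 9.55 to 11.56 on the GFP- arrays. For 3 horizontal basal cell genes it was 5.27 to 5.62 and 5.08 to 5.49. The mean of 7 sustentacular (supporting) cell genes was 12.09 to 12.90 on the GFP- arrays. Among the GFP+ arrays it was highest in smoke pools 2 and 4, at 12.56 and 12.91, against 11.72 to 12.18 on the others. The smoke-pool counts are therefore also given without these pools. So are the smoke-pool results picked by the naming rule below, where a call changed. The part these cell types play in the receptor values was not tested.

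The members were well measured as a set. Vomeronasal receptors belong to another organ, and their 95th percentile, 6.14 to 6.78 depending on the array, served as a low level. Only Olfr768 and Olfr782 had group means at or below it in all 4 groups, Olfr780 was below it in vehicle GFP+ cells alone, and 54 of 56 members passed a filter at that level. No member reached a log2 value of 16 on any array, the highest being 14.67. The pooled within-group SD of a member ranged from 0.18 to 0.79, with a median of 0.39. RefSeq synonyms give 55 members a name in the MOR scheme, which numbers receptors by sequence family, and these fall into 15 families. The largest are MOR114 with 13 members, MOR110 with 9 and MOR111 with 8, then MOR113 and MOR210 with 5 each.

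Sorting split the cluster. In vehicle pools, which received filtered air alone, 18 members were higher in GFP+ than in GFP- cells, 14 were lower and 24 did not pass limma's test at an adjusted p of 0.05. Over all 19505 genes the shares called were 24.2% higher and 15.4% lower. Among the other Olfr genes they were 53.6% and 18.9%, against 32.1% and 25% of the members. In smoke pools 14 members were higher, 19 lower and 23 not called. All genes gave 18.3% and 14.4%, the other Olfr genes 50.5% and 21.4%, and the members 25% and 33.9%.

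The middle of the distribution differed in the same way. The median GFP+ minus GFP- difference over the members was 0.22 in vehicle and -0.06 in smoke pools (log2, where 1 is a 2-fold difference), beside 0.80 and 0.68 over the other Olfr genes and 0.17 and 0.15 over all genes. The upper end was also short. The highest member difference was 1.91 in vehicle and 2.05 in smoke pools, while the other Olfr genes reached 5.40 and 6.13. The lower ends were closer, at -5.22 and -4.91 for members and -6.24 and -6.38 for the others. A larger set reaches further, so the extremes of 56 and of 1024 genes are not like measures. The upper quartiles were 0.75 and 0.49 for members and 1.91 and 1.87 for the others. The lower quartiles were -0.84 and -0.96 for members and -0.26 and -0.49 for the others. These directions depend on the scale. With each array centred on the median of the other Olfr genes, the sort differences of all genes moved by -0.81 and -0.83. The member medians became -0.59 and -0.89. The member counts became 6 higher and 30 lower in vehicle pools and 4 higher and 39 lower in smoke pools. Over all 19505 genes centring gave 448 higher and 14046 lower in vehicle pools, and 387 and 15379 in smoke pools. Most genes were therefore called lower on that scale. Among the 1024 other Olfr genes it gave 384 higher and 363 lower in vehicle pools, and 356 and 412 in smoke pools. In bulk fractions, fewer neurons of a type and less RNA per neuron cannot be told apart.

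**Figure D1:**
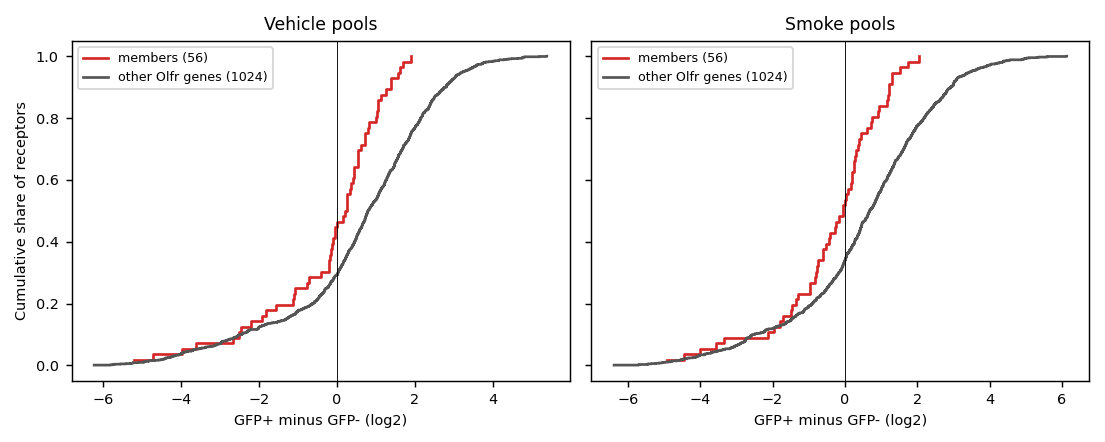
Cumulative share of receptors (vertical axis) against the GFP+ minus GFP- difference in log2 (horizontal axis) for the 56 members and the 1024 other Olfr genes, in vehicle (left) and smoke pools (right). The member curve ends at 1.91 and 2.05, while the other receptors run on to 5.40 and 6.13; at the low end the curves lie close together.

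The vehicle and smoke pools came from different mice and can be set side by side. Of the members, 8 were higher in GFP+ cells in both exposures and 12 lower in both. A further 12 passed in vehicle pools only, 13 in smoke pools only and 11 in neither, and none passed in opposite directions. Of the 1024 other Olfr genes, 465 were higher in both, 165 lower in both and 11 passed in opposite directions. Another 102 passed in vehicle pools only, 95 in smoke pools only and 186 in neither. With each array centred on the other Olfr genes, 1 member was higher in both and 26 members were lower in both. Olfr777 and Olfr819 then passed in opposite directions, lower in vehicle and higher in smoke pools. Centred counts over both exposures are given here for the members alone, so the 26 have no like background. On that scale 14046 of all 19505 genes were lower in vehicle and 15379 in smoke pools. Of the other Olfr genes, 363 and 412 were lower. Across the 56 members the sort differences had a Pearson correlation of 0.87 between exposures, and across the 1024 other Olfr genes 0.92. Genes are not replicates, and both values are descriptions.

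**Figure D2:**
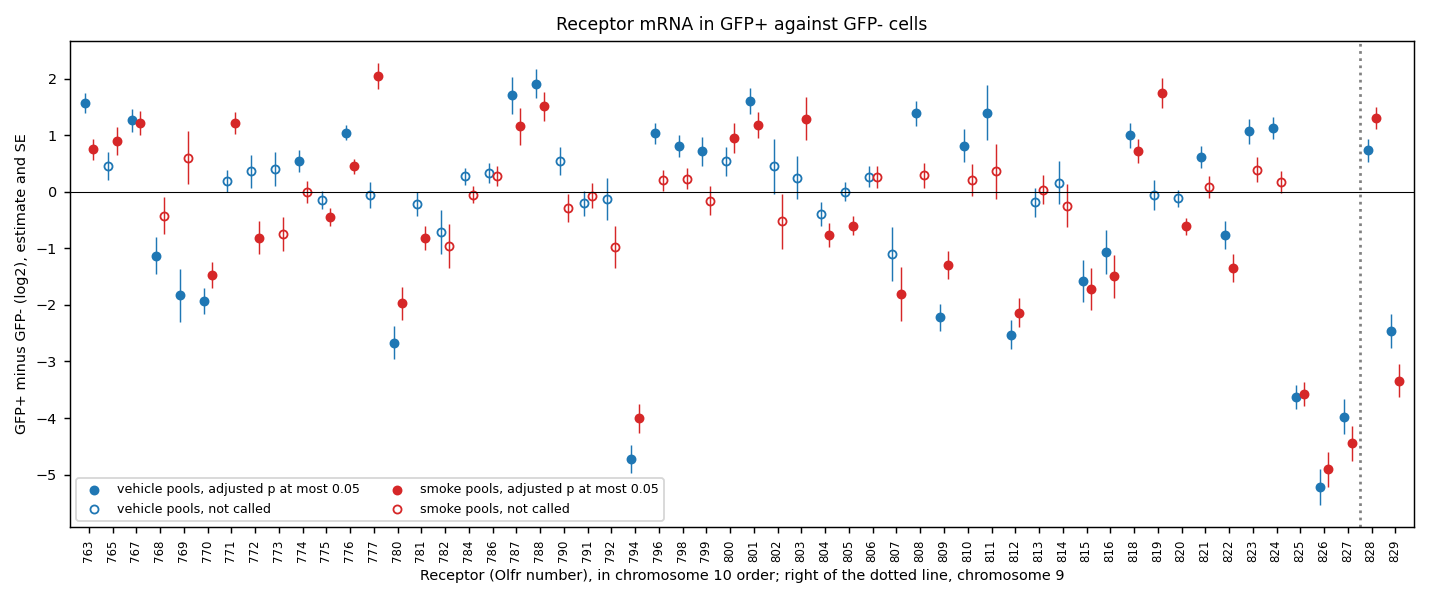
GFP+ minus GFP- difference in log2 (vertical axis, limma estimate with its SE) for each member, in order along chromosome 10 and then, right of the dotted line, chromosome 9. Blue points are vehicle pools and red points smoke pools, 4 pools each, filled where the adjusted p is at most 0.05; Olfr794 and Olfr825 to Olfr827 stand lowest, between -3.58 and -5.22.

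The member with the largest sort difference in both exposures, Olfr826, belongs to the MOR210 family, whose 5 genes are the last 5 members along chromosome 10. Olfr825, Olfr826 and Olfr827 were far lower in GFP+ cells. Their neighbours Olfr823 and Olfr824 were higher in GFP+ cells of vehicle pools.

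Olfr826 had log2 values of 7.91, 6.89, 8.28 and 8.17 in vehicle GFP+ cells of pools 1 to 4 and 12.82, 13.16, 13.02 and 13.15 in the matching GFP- cells. After smoke the values were 7.37, 8.45, 9.09 and 8.08 in GFP+ and 13.10, 12.87, 13.18 and 13.48 in GFP- cells. The fractions were far apart in every pool. The difference was -5.22 (SE 0.31, limma adjusted p = 1.36e-09) in vehicle and -4.91 (SE 0.31, adjusted p = 3.40e-09) in smoke pools, or 37.4-fold and 30.1-fold. Only 0.879% of the 1024 other Olfr genes had a difference below that of Olfr826 in vehicle pools.

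Olfr825 differed by -3.62 (SE 0.21) in vehicle pools, from 7.41 ± 0.22 in GFP+ to 11.03 ± 0.26 in GFP- cells (mean ± SD, n = 4). In smoke pools it differed by -3.58 (SE 0.21), from 7.57 ± 0.46 to 11.15 ± 0.32. Olfr827 gave -3.98 (SE 0.31) in vehicle and -4.45 (SE 0.31) in smoke pools. The GFP+ values of both genes lay near the low level without falling to it on average, and their groups did not overlap in either exposure.

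Olfr823 stood at 9.01, 9.04, 8.67 and 8.85 in vehicle GFP+ cells and at 7.85, 7.95, 7.4 and 8.10 in vehicle GFP- cells. Every GFP+ array was above every GFP- array, a difference of 1.07 (SE 0.22, limma adjusted p = 0.00107). In smoke pools the difference was 0.39 (SE 0.22, adjusted p = 0.187), and the groups overlapped. Olfr824 gave 1.12 (SE 0.19, adjusted p = 0.000224) in vehicle and 0.18 (adjusted p = 0.508) in smoke pools. Centred on the other Olfr genes, neither vehicle call held, at 0.26 (adjusted p = 0.270) and 0.31 (adjusted p = 0.102), and in smoke pools the signs turned, to -0.44 (adjusted p = 0.0646) and -0.65 (adjusted p = 0.00259).

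**Figure D3:**
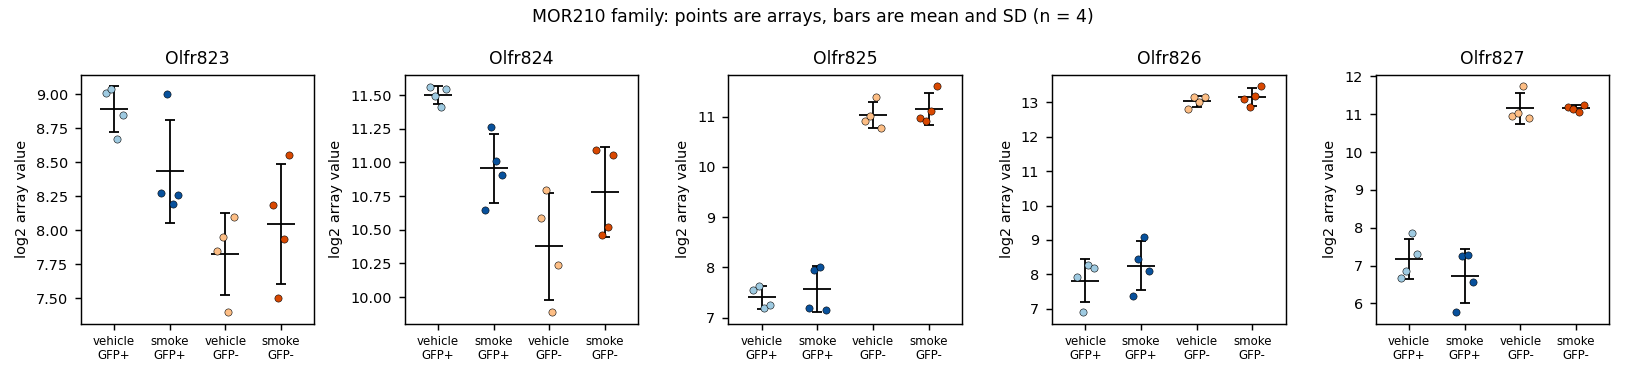
Log2 array values (vertical axes, 1 panel per gene, each with its own scale) of the MOR210 receptors in the 4 groups. Points are arrays and bars the mean and SD of 4; for Olfr825, Olfr826 and Olfr827 all GFP+ arrays sit below all GFP- arrays, with differences of -5.22 to -3.58 over both exposures, while Olfr823 and Olfr824 sit 1.07 and 1.12 higher in vehicle pools.

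Paralogues as close as these can share probe sequence, and the first 50 coding bases show how close Olfr825 and Olfr826 are. They are printed 5′ to 3′ from the RefSeq start codon (GRCm38.p6, both on the minus strand, chr10:130163275-130163324 and chr10:130180829-130180878), with the bases that differ in capitals.
Olfr825: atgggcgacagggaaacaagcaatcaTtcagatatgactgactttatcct
Olfr826: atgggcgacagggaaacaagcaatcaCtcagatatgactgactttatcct
They differ at 1 of 50 bases, whereas the median pair among the 44 members with such a stretch differs at 26.5. Their SDs over the 16 arrays were 1.88 and 2.66, and the SD of their difference was 0.88, smaller than that of either gene. The SD of a difference also depends on how widely each gene varies. The median of 0.90 over all 1540 member pairs is therefore not a like measure for this pair. How much of each signal comes from the other gene was not tested.

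Olfr794, a MOR114 receptor near the middle of the cluster, showed the same kind of split. Its values were 7.94, 8.85, 8.90 and 7.7 in vehicle GFP+ cells and 13.20, 13.43, 12.89 and 12.77 in vehicle GFP- cells. After smoke they were 9.42, 9.16, 9.22 and 8.71 against 13.41, 13.26, 12.95 and 12.92. The sort difference was -4.73 (SE 0.25, limma adjusted p = 3.45e-10) in vehicle and -4.01 (SE 0.25, adjusted p = 2.57e-09) in smoke pools. On chromosome 9, Olfr829 differed by -2.46 (SE 0.30) and -3.34 (SE 0.30), while Olfr828 was higher in GFP+ cells, by 0.74 (SE 0.20) and 1.31 (SE 0.20).

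The other members lower in GFP+ cells in both exposures were Olfr770, Olfr780, Olfr809, Olfr812, Olfr815, Olfr816 and Olfr822. Their differences ran from -2.67 to -0.77 in vehicle pools and from -2.14 to -1.29 in smoke pools. Olfr780 is a bound in vehicle pools, since its GFP+ mean of 6.24 was not above the low level: set against that level, the difference was -2.21 or lower. Olfr815, Olfr816 and Olfr822 belong to the MOR113 family, in which 3 of 5 members were lower in both exposures and Olfr810 was higher in vehicle pools. After centring on the other Olfr genes the family had 0 higher and 3 lower in vehicle pools and 0 higher and 5 lower in smoke pools. Olfr810 was then at 0.007 in vehicle pools (limma adjusted p = 0.980) and -0.62 in smoke pools (adjusted p = 0.0419).

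The members higher in GFP+ cells in both exposures were Olfr763, Olfr767, Olfr776, Olfr787, Olfr788, Olfr801, Olfr818 and Olfr828. Olfr788 led in vehicle pools with 13.60, 14.56, 14.64 and 14.67 in GFP+ and 12.04, 13.04, 12.26 and 12.48 in GFP- cells. Its groups did not overlap, and the difference was 1.91 (SE 0.26, limma adjusted p = 1.81e-05), against 1.51 (SE 0.26, adjusted p = 0.000248) in smoke pools. Olfr787 gave 1.71 and 1.16, Olfr801 1.61 and 1.18, and Olfr763 1.57 and 0.75. After centring on the other Olfr genes, Olfr788 was the only 1 of these 8 called higher in both exposures, at 1.10 and 0.68. Olfr763, Olfr767, Olfr787 and Olfr801 were then called higher in vehicle pools alone and Olfr828 in smoke pools alone, Olfr818 in neither, and Olfr776 was lower in smoke pools, at -0.38 (adjusted p = 0.0421). Olfr763 turned to -0.08 in smoke pools, and Olfr828 to -0.08 in vehicle pools. All 12 members lower in both exposures were also lower in both after centring. Centring lowered every sort difference, so this outcome says nothing about how firm those calls are.

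Olfr776, Olfr787 and Olfr788 are MOR111 receptors, and in that family 4 of 8 members were higher and none lower in vehicle pools. In smoke pools 4 were higher and 1, Olfr775, was lower. After centring on the other Olfr genes the family had 2 higher and 2 lower in vehicle pools and 1 higher and 5 lower in smoke pools. MOR114 had 1 of 13 members higher and 5 lower in vehicle pools, among them Olfr768, whose values are at the low level in both fractions, and 3 higher and 5 lower in smoke pools. After centring it had 0 higher and 9 lower in vehicle pools and 1 higher and 9 lower in smoke pools. Differences between families were not tested. MOR110 was mixed, with 3 of 9 higher and 1 lower in vehicle pools and 2 higher and 3 lower in smoke pools, and after centring 1 and 6, and 0 and 6. Olfr811 was higher by 1.40 in vehicle pools (adjusted p = 0.0310), but with the pool as a block the adjusted p was 0.0820. Without pool 1 or pool 4 of vehicle GFP+ cells it was 0.112 and 0.0904, and without pool 1 or pool 4 of vehicle GFP- cells 0.108 and 0.0583. Centred on the other Olfr genes, Olfr811 was at 0.59 (adjusted p = 0.286). Olfr803 was higher by 1.29 in smoke pools (adjusted p = 0.0159); without the smoke GFP- array of pool 3 the adjusted p was 0.0552, without smoke pools 2 and 4 it was 0.112, and centred on the other Olfr genes the difference was 0.46 (adjusted p = 0.213).

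Leaving out smoke pools 2 and 4 reduced the smoke-pool counts to 7 members higher and 11 lower, from 14 and 19. The counts over all genes also fell, to 1509 higher and 2070 lower, from 3574 and 2799. Those of the other Olfr genes fell to 405 and 169, from 517 and 219. That fit rests on the remaining pair of smoke pools. Olfr825, Olfr826, Olfr827, Olfr794, Olfr829, Olfr788, Olfr819, Olfr777 and Olfr828 kept their smoke-pool calls in it.

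The smoke comparisons asked which receptors changed with exposure inside each fraction. In GFP+ cells, the fraction meant to gather responding neurons, 0 members passed limma's test in either direction, where 0.103% of all genes were higher and 0.00513% lower, and 1.46% and 0.0977% of the other Olfr genes. At an unadjusted p below 0.05 there were 17 members, 10 higher and 7 lower, or 30.4%, against 17.2% of the other Olfr genes and 4.8% of all genes. The smoke and vehicle arrays did not overlap for 4 members that were higher and 3 that were lower. Among all genes 1.66% and 1.34% did not overlap in those directions, and among the other Olfr genes 5.47% and 3.22%. The median difference was -0.07, beside -0.05 over the other Olfr genes.

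In GFP- cells 1 member, Olfr798, rose and 1, Olfr777, fell. Over all genes 0.0154% were higher and 0.113% lower, and among the other Olfr genes 0% and 2.05%. At an unadjusted p below 0.05 there were 8 members higher and 3 lower, or 19.6%, against 20.7% of the other Olfr genes and 5.72% of all genes. The exposures did not overlap for 5 members that were higher and 1 that was lower; the shares were 4.39% and 4.98% of the other Olfr genes and 1.43% and 1.3% of all genes. Most members had a difference above 0 in these cells, 41 of 56 or 73.2%, with a median of 0.23, beside 64.6% and 0.16 for the other Olfr genes. The smoke effect itself was then compared between fractions. That difference passed for 1 member, Olfr777, which was more positive in GFP+ cells, where 0.169% of all genes were higher and 0.00513% lower, and 2.83% and 0.0977% of the other Olfr genes. With the pool as a block 2 members passed, Olfr777 and Olfr819. In that fit 34 of all 19505 genes were higher and 1 lower, and 29 and 1 of the 1024 other Olfr genes. At an unadjusted p below 0.05 there were 18 members, 5 more positive in GFP+ cells and 13 less so, or 32.1%, against 25.5% of the other Olfr genes and 5.71% of all genes.

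**Figure D4:**
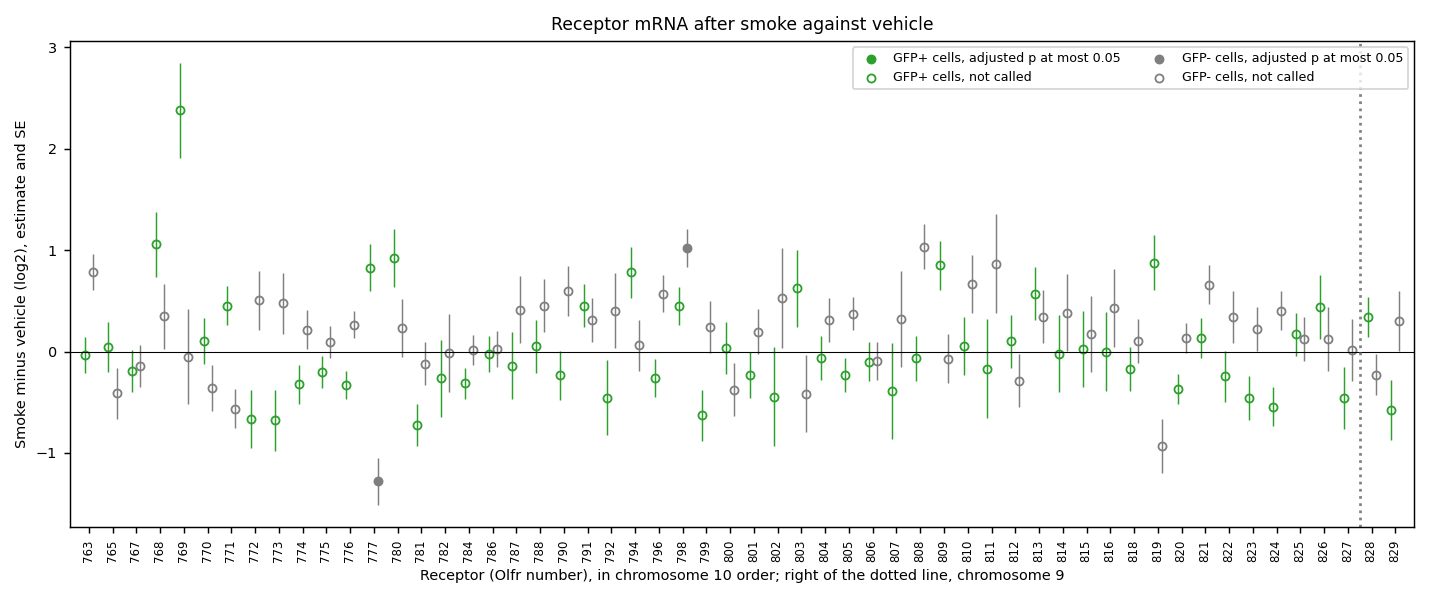
Smoke minus vehicle difference in log2 (vertical axis, limma estimate with its SE) for each member in chromosome order, in GFP+ cells (green) and GFP- cells (grey), 4 pools per exposure. Filled points have an adjusted p of at most 0.05; these are Olfr777 at -1.28 and Olfr798 at 1.02, both in GFP- cells, and Olfr769 at 2.38 in GFP+ cells is the highest point but is not filled. The points of Olfr768 and Olfr782, and of Olfr780 in GFP+ cells, rest on values at the low level.

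Olfr777, a MOR114 receptor, moved apart between the fractions. In GFP- cells its values were 12.23, 12.36, 12.27 and 12.05 in vehicle pools and 10.86, 10.83, 10.68 and 11.42 in smoke pools. Every smoke array lay below every vehicle array, and the difference was -1.28 (SE 0.23, limma adjusted p = 0.0402), a 2.43-fold decrease. In GFP+ cells it had 11.69, 12.67, 12.54 and 11.77 in vehicle and 12.81, 13.33, 12.56 and 13.29 in smoke pools. These groups overlapped slightly, and the difference of 0.83 (SE 0.23) had an adjusted p of 0.535. The difference between the fractions' smoke effects was 2.11 (SE 0.33, adjusted p = 0.00919; 0.00691 with the pool as a block).

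Its sort difference was -0.06 in vehicle pools, where the 4 pools ranged from -0.53 to 0.31, and 2.05 in smoke pools, where they ranged from 1.86 to 2.5. Centred on the other Olfr genes it was -0.87 (adjusted p = 0.00404) and 1.22 (adjusted p = 0.000276). The fall in GFP- cells lost its call in 7 of 8 fits without 1 array, with an adjusted p up to 0.153, and kept it only without smoke GFP- pool 4, at 0.0216. The difference between fractions passed in 16 of 16 such fits, with adjusted p from 0.00441 to 0.0306. It did not pass without smoke pools 2 and 4, where it was 1.98 with an adjusted p of 0.179. The fall in GFP- cells also lost its call without these pools, at -1.46 (adjusted p = 0.145).

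Olfr819, the only MOR265 receptor among the members, had a profile of the same shape. Its values were 10.20, 10.76, 11.21 and 10.95 in vehicle GFP+ cells and 11.09, 11.65, 11.80 and 12.08 in smoke GFP+ cells. In GFP- cells they were 10.11, 11.32, 10.87 and 11.04 after vehicle and 9.52, 9.83, 10.05 and 10.21 after smoke. Both comparisons had 1 or more overlapping arrays. The smoke differences were 0.88 (SE 0.27, limma adjusted p = 0.648) in GFP+ and -0.93 (SE 0.27, adjusted p = 0.495) in GFP- cells, and the difference between them was 1.81 (SE 0.38) with an adjusted p of 0.101, or 0.00691 with the pool as a block. Of 16 fits without 1 array it passed in 2, at 0.0405 without smoke GFP+ pool 1 and 0.0200 without vehicle GFP- pool 1, and reached 0.226 at most. Without smoke pools 2 and 4 it was 0.887. Its sort difference was -0.06 in vehicle pools and 1.75 (SE 0.27, adjusted p = 8.10e-05) in smoke pools, where every pool lay between 1.57 and 1.87. Centred on the other Olfr genes these became -0.87 (adjusted p = 0.00820) and 0.92 (adjusted p = 0.00515).

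Olfr247 lies next to Olfr819 on chromosome 10 and shares its MOR265 family, though its number is outside the range. Its smoke differences were 1.26 (adjusted p = 0.477) in GFP+ and -1.12 (adjusted p = 0.543) in GFP- cells. The difference between them was 2.37 (SE 0.48) with an adjusted p of 0.0767. It was lower in GFP+ than in GFP- cells in vehicle pools, at -0.99 (adjusted p = 0.0292), and higher in smoke pools, at 1.38 (adjusted p = 0.00525). The SD over 16 arrays was 0.74 for Olfr819, 0.79 for Olfr247 and 0.42 for their difference.

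Olfr769, another MOR114 receptor, had the highest smoke difference of the members in GFP+ cells. Its values were 9.60, 7.99, 9.21 and 6.72 in vehicle and 11.67, 10.87, 10.08 and 10.41 in smoke GFP+ cells. Every smoke array was above every vehicle array, and the vehicle arrays were spread widely. The difference was 2.38 (SE 0.47, limma adjusted p = 0.0827), and the exact permutation p over the 8 arrays was 0.0286, the smallest that 4 against 4 can give. The adjusted p was 0.0338 with an intensity trend in the spread and 0.0467 after centring on the other Olfr genes. Of 8 fits without 1 array it passed in 2, at 0.0263 and 0.0467 without vehicle GFP+ pool 1 or 3, and reached 0.247 at most. Without smoke pools 2 and 4 it was 0.745. In GFP- cells the groups overlapped, with a difference of -0.05. The GFP+ minus GFP- difference was below 0 in all 4 vehicle pools, from -3.11 to -0.73, and above 0 in all 4 smoke pools, from 0.10 to 1.12, yet the difference of smoke effects had an adjusted p of 0.454.

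Olfr798, of the MOR108 family, was the member that rose in GFP- cells. It had 7.43, 7.86, 7.53 and 7.55 after vehicle and 8.59, 8.67, 8.60 and 8.59 after smoke, with no overlap. The difference was 1.02 (SE 0.19, limma adjusted p = 0.0418), a 2.03-fold increase. None of the 8 fits without 1 array kept the call, with adjusted p from 0.0514 to 0.172. Without smoke pools 2 and 4 it was 1.01 (adjusted p = 0.557). In GFP+ cells the difference was 0.45 (SE 0.19, adjusted p = 0.999). Olfr808 (MOR112) in GFP- cells had a difference of the same size, 1.03 (SE 0.22), with no overlap between exposures and an adjusted p of 0.137. Olfr763 had 0.79 (SE 0.18, adjusted p = 0.186) there, also with no overlap. Olfr811 had 0.87 (SE 0.49, adjusted p = 0.895) and Olfr771 -0.56 (SE 0.19, adjusted p = 0.686), both with overlap.

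**Figure D5:**
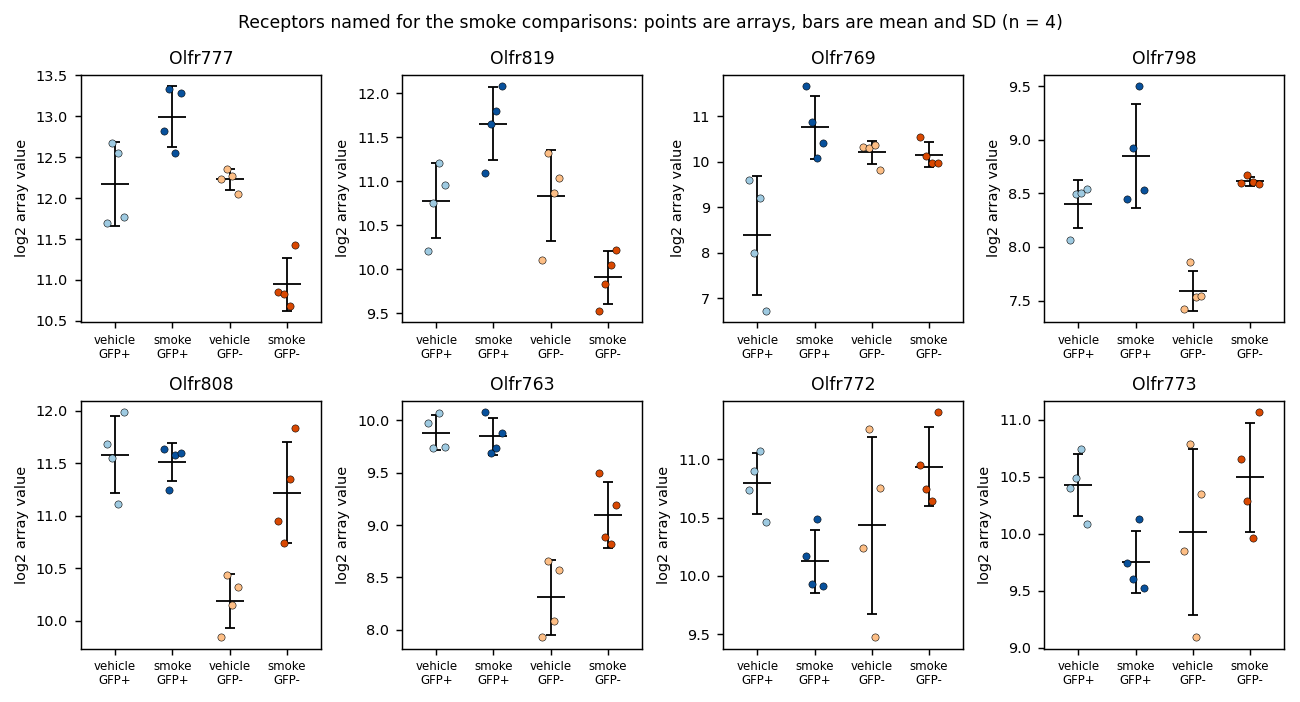
Log2 array values (vertical axes, 1 panel per gene, each with its own scale) of 8 members in the 4 groups; points are arrays and bars the mean and SD of 4. For Olfr777 and Olfr819 the smoke GFP+ mean is the highest and the smoke GFP- mean the lowest of the 4, and Olfr772 and Olfr773 trace nearly the same pattern as each other.

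Olfr768, at or below the low level in every group, has no interpretable smoke difference, and that of Olfr780 in GFP+ cells is taken against a vehicle mean at the low level and is not given. The lowest smoke differences in GFP+ cells were those of Olfr781, at -0.72 (adjusted p = 0.546), Olfr773, at -0.68, and Olfr772, at -0.67 (both adjusted p = 0.999). Olfr772 and Olfr773 are neighbouring MOR114 genes and were the closest of all 1540 member pairs over the 16 arrays: each had an SD of 0.52 or 0.53, and their difference an SD of 0.09, against the median of 0.90 over the pairs. Their smoke effects differed between fractions by -1.17 (SE 0.41) and -1.15 (SE 0.42), with adjusted p of 0.788 and 0.824. How much of each signal comes from the other gene was not tested for this pair, so they may not be separate observations. The gene model of Olfr772 does not begin with ATG, so its coding start was not compared.

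The first 50 coding bases of the other pair that differs at 1 base, and of Olfr792 and Olfr798 from MOR108, which differ at 2, are shown because their array profiles differ in how closely they follow each other. They are printed as above (GRCm38.p6, chr10:129047012-129047061 and chr10:129079912-129079961 on the minus strand, chr10:129540539-129540588 on the plus strand and chr10:129626010-129626059 on the minus strand), with the differing bases of each pair in capitals.
Olfr765: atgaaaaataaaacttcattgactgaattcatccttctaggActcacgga
Olfr767: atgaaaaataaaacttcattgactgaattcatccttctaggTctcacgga
Olfr792: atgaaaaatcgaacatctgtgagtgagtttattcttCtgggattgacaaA
Olfr798: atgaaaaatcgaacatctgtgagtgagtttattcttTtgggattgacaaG
Olfr765 and Olfr767 had SDs of 0.52 and 0.71 over the arrays and an SD of 0.44 for their difference. Both were higher in GFP+ cells of smoke pools, by 0.91 (SE 0.25) and 1.22 (SE 0.20), and Olfr767 also in vehicle pools, by 1.27 (SE 0.20). After centring on the other Olfr genes neither smoke-pool call held, at 0.08 (adjusted p = 0.744) and 0.39 (adjusted p = 0.0565), while Olfr767 in vehicle pools was at 0.46 (adjusted p = 0.0309). For Olfr792 and Olfr798 the SD of the difference, 0.88, was larger than the 0.64 and 0.55 of either gene. The GFP- smoke difference of Olfr792 was 0.40, against 1.02 for Olfr798.

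Most of these gene models begin at the start codon (44 of the 45 members with a 300-base window in the RefSeq table), so the 250 bases before them need not hold a promoter. In those windows TAATNA, the core bound by homeodomain proteins, was found on either strand in 32 of 45 members (71.1%), 65.6% of 899 windows of other Olfr genes and 26.5% of all 32851 windows. CCCNNGGG, an Olf1/Ebf-like core, was found in 0 of 45, 3.23% and 13.7%. The median GC content of the windows was 32.0% for members, 35.3% for other Olfr genes and 52.7% for all.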

How the data were processed

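Clariom S arrays were hybridised with RNA from 16 sorted fractions, and the authors deposited log2 expression values per probe set, made with Affymetrix Expression Console per the submitters' processing notes; the sources used here give no summarisation method, version or annotation release. Values on the 16 arrays ran from 2.29 to 18.60, and no further normalization was applied. Of 28846 probe sets, 19572 had 1 gene symbol in the platform annotation and 9274 had none; the probe set with the highest mean was kept for each of 19505 genes.

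Group means were fitted with limma 3.58.1 in R 4.3.3 (lmFit and eBayes, 4 groups, 1 spread per gene), with 5 contrasts and Benjamini-Hochberg adjustment over all 19505 genes at 0.05. The procedure was tested on simulated data. SE is limma's. Groups "do not overlap" where all 4 arrays of one lie beyond all 4 of the other. Single values had an exact two-sided permutation test. The number of arrays limits the precision.

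GFP+ and GFP- cells of 1 number came from the same mice, which pairs them for the sort and for the difference of smoke effects. The main fit leaves this pairing out. Its counts, SEs and p-values come from unpaired group means, and the pool block was fitted only as an alternative. Residual correlations within pools were 0.05 to 0.21 in vehicle and 0.09 to 0.22 in smoke pools. Nothing in the labels ties vehicle pool numbers to smoke pool numbers.

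The members and gene lists were chosen with earlier results of these data known. Named members are S100a5 and Omp as checks, members past the threshold in the smoke comparisons or their difference, the 3 highest and 3 lowest in each of these, and the 5 highest and 5 lowest called in each sort. Other members, and Olfr247 as a neighbour, were named after their values were seen. RefSeq symbols, positions and sequences (GRCm38.p6) matched 56 of 56 members, and 45 had a sequence window; coding starts were compared without gaps, using Python 3.11.15. Alternatives were a pool or number block, quantile normalization, centring on other Olfr genes, an intensity trend, a low-value filter, the mean of a gene's probe sets, the compared groups only, a threshold of 0.10, leaving out each array, leaving out smoke pools 2 and 4 and, chosen after seeing the data, leaving out Olfr828 and Olfr829. Protein identity between members was not used here.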

Additional observations from a re-analysis of the deposited data

Results flagged for a closer look

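In groups of 4 arrays, 9 of 104 tested groups of the named members held an array whose gap to its nearest neighbour passed Dixon's 95% value of 0.829 as a share of the range; chance gives about 1 in 20. Pool 1 of vehicle GFP+ was low for Olfr771 (12.56, others 13.06 to 13.16), Olfr788 (13.60, others 14.56 to 14.67) and Olfr798 (8.07, others 8.49 to 8.54). Olfr769 was low in vehicle GFP- pool 4 (9.82, others 10.31 to 10.36), and Olfr827 was high in vehicle GFP- pool 3 (11.75, others 10.89 to 11.03). In smoke GFP+ cells, pool 2 was low for Olfr808 (11.24, others 11.58 to 11.64) and high for Olfr823 (9.0, others 8.20 to 8.27), and pool 4 was low for Olfr781 (8.22, others 8.65 to 8.73). Olfr780 was high in smoke GFP- pool 4 (9.36, others 9.03 to 9.08).

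The smoke effect on Olfr777 differed between GFP+ and GFP- cells by 2.11 in limma's test of that difference. Olfr769 is listed because its GFP+ minus GFP- difference was below 0 in all 4 vehicle pools (-1.83 on average) and above 0 in all 4 smoke pools (0.60); limma's test of the difference had an adjusted p of 0.454.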

How the results depend on the processing

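Over the alternatives to the results chosen by the naming rule, 708 left direction and call as they were, 32 lost the call, 13 gained it and 2 turned the sign (Olfr823 to -0.44 and Olfr824 to -0.65 in the smoke-pool sort, centred on other Olfr genes). That tally leaves out other sort values of the same genes, of which Olfr763 in smoke and Olfr828 in vehicle pools also turned sign (both -0.08). Members higher with smoke in GFP+ cells numbered 1 after centring, with an intensity trend and at a threshold of 0.10, and 2 with the replicate number as a block. Centring gave 28 of all 19505 genes and 23 of the 1024 other Olfr genes there, and the number block 26 and 19. Members with a larger smoke effect in GFP+ cells numbered 2 with a trend and 2 with the pool block. The pool block gave 34 of all genes and 29 of the other Olfr genes. Such counts are not given here for the trend or the threshold of 0.10. Same-numbered vehicle and smoke arrays had residual correlations of 0.08 to 0.20 in GFP+ and -0.08 to 0.18 in GFP- cells, not above 0.1 in every pair, and no label ties them, so the number was not taken as a pairing; under that block Olfr769 in GFP+ cells (adjusted p = 0.0298) and Olfr819 in GFP- cells (0.0262) passed and Olfr777 in GFP- cells (0.0623) did not, and in GFP+ cells every array correlated best with its own number, a hint from the data and not the design. Besides the interaction of Olfr819 and the vehicle sort of Olfr811, the pool block changed no other call among named members. Without smoke pools 2 and 4 the counts were 0 higher and 0 lower in GFP- cells, 0 for the larger smoke effect and 7 higher and 11 lower in the smoke-pool sort. Over all 19505 genes that fit gave 0 higher and 7 lower in GFP- cells and 9 with the larger effect, all of them other Olfr genes. Centring gave 6 higher, 30 lower and a median of -0.59 in the vehicle sort and 4, 39 and -0.89 in the smoke sort. Leaving out 1 array at a time gave 0 to 2 members higher and 0 lower in GFP+ cells (median -0.12 to -0.02), 0 higher and 0 to 1 lower in GFP- cells (0.11 to 0.28), 1 to 2 higher and 0 lower for the difference of effects (-0.46 to -0.31), 13 to 20 higher and 12 to 15 lower in the vehicle sort (0.10 to 0.29), and 10 to 14 higher and 17 to 21 lower in the smoke sort (-0.17 to 0.01). Counts over all genes are not given here for the fits without 1 array. Without Olfr828 and Olfr829 the sort counts were 17 and 13 in vehicle and 13 and 18 in smoke pools. The planned protein identity comparison was not run. Signal near the vomeronasal level limits Olfr768, Olfr782 and, in vehicle GFP+ cells, Olfr780.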
